A study of Mus musculus with 7 samples.

Results

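The 9 genes described here encode secreted proteins that bind neurexins from the synaptic cleft: the cerebellins Cbln1, Cbln2 and Cbln4, the C1q-like proteins C1ql1, C1ql2 and C1ql3, and the neurexophilins Nxph1, Nxph3 and Nxph4. They were chosen by gene name and are 9 of the 38924 gene records in the count table; their 37 exon bins, the non-overlapping pieces of their exons, were read from the exon-level counts. RNA came from dissected hippocampus of adult mice, as 3 libraries of Ammon's horn (the CA fields) from mice with a homozygous Khdrbs3 deletion, 1 library of dentate gyrus from wild-type mice and 3 libraries of Ammon's horn from wild-type mice. Every library carries the same strain label, a Tstar (Khdrbs3) null allele crossed back to C57Bl6 over 8 generations. The labels limit the deletion to no cell type and leave unsaid which libraries are separate animals, so p-values measure the spread between libraries as deposited. There is 1 dentate gyrus library, and its tests assume that it varies as the Ammon's horn libraries do.

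Neurexins are presynaptic adhesion proteins whose many splice forms select partners across the cleft. Cerebellins form hexamers that link neurexins holding the insert at splice segment 4 to postsynaptic GluD receptors. C1q-like proteins share the C1q fold; C1ql2 and C1ql3 are released from mossy fibers, the axons of dentate granule cells, where they bring neurexin 3 together with kainate receptors, and the adhesion receptor BAI3 is another partner of the family. Neurexophilins bind a different domain, found in the long alpha-neurexins. KHDRBS3 (T-STAR, SLM2), the RNA-binding protein deleted here, is known as a repressor of the neurexin segment 4 exon.

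The sequences below are a segment 4 exon, the insert that cerebellin binding requires, shown because it is the receptor feature that differs in the knockout, and the promoters of a ligand gene that was high in the dentate gyrus and of one that was low there. The exon, Nrxn3 exon bin 34, was read from GENCODE M21 transcripts as 90 bp of coding sequence on the plus strand of mm10 (chr12:90199147-90199236). It is in lower case throughout, as no part of it is singled out.
Nrxn3 segment 4 exon: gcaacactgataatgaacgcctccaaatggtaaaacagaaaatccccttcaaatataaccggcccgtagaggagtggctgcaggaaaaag

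The promoter windows are the 250 bases before the RefSeq start of C1ql2 (chr1:120340332-120340581, plus strand) and of Cbln4 (chr2:172043467-172043716, minus strand), from RefSeq on GRCm38.p6, printed 5′ to 3′ in the direction of the gene. These were printed because the RefSeq start is also the deposited gene start for both. Capitals mark the E-box, CANNTG on either strand, the core motif bound by many neuronal bHLH factors.
C1ql2 promoter: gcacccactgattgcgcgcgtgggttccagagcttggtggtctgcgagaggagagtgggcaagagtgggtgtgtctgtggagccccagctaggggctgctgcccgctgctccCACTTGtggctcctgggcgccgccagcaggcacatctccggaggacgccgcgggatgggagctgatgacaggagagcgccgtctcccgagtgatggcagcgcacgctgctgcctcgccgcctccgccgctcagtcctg
Cbln4 promoter: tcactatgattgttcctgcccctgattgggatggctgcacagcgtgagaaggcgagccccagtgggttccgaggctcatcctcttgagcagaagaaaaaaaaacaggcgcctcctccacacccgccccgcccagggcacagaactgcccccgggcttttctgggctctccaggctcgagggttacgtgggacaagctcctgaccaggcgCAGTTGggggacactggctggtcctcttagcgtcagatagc
Each window held 1 E-box, and 66.2% of the 32841 windows of this length in the table held at least 1. The Cbln4 window also held 1 CCAAT box (CCAAT, in 33.9% of windows), 2 GC boxes (GGGCGG, 32.7%) and 1 TGACG, the core of the cAMP response element (17.8%), searched on both strands, and the C1ql2 window held none of these. Neither window held TATAAA, which 12.4% of windows did. The G and C content was 68.8% for C1ql2 and 60.8% for Cbln4.

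Gene-table totals ran from 50230733 to 67692326 counts per library, and exon-bin totals from 29698245 to 39904606 reads. Exon bin 2 of Khdrbs3 held 6, 9 and 7 reads in the knockout libraries, against 808, 1103 and 964 in the wild-type ones, as the genotype labels say. In the dentate gyrus library all 8 granule cell markers were above, and all 8 CA1 pyramidal markers below, their values in the 6 Ammon's horn libraries. Choroid plexus markers summed to 794, 20.3 and 737 counts per 1000000 (CPM) in the knockout libraries, 266 in the dentate gyrus and 153, 40.3 and 22.6 in wild-type Ammon's horn. Levels below are CPM after TMM scaling, or, between genes, reads per kilobase of exon bins per 1000000 exon-bin reads (RPKM).

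Per length, C1ql3 was the most abundant ligand RNA of Ammon's horn and Nxph4 the least. C1ql3 had 18.2 ± 1.29 RPKM in knockout and 17.7 ± 1.45 RPKM in wild-type Ammon's horn (SD, n = 3 each), above every other member in each library. Next came Nxph3, at 8.11 ± 0.35 RPKM in knockout and 7.62 ± 1.19 RPKM in wild-type libraries, and C1ql2, at 7.39 ± 1.88 RPKM in knockout and 7.55 ± 0.99 RPKM in wild-type libraries, whose libraries overlapped those of Nxph3 in both groups. In wild-type Ammon's horn Nxph1 (5.12 ± 0.34 RPKM) overlapped Cbln4 (4.89 ± 1.06 RPKM), which overlapped C1ql1 (4.53 ± 0.44 RPKM). Cbln1 (2.84 ± 0.99 RPKM) and Cbln2 (2.36 ± 0.55 RPKM) overlapped each other and lay below these. Nxph4 closed the order, at 0.46 ± 0.05 RPKM in knockout and 0.38 ± 0.01 RPKM in wild-type libraries. The place of Nxph1 rests on the exon model: a 1287 bp bin of 1 transcript held at most 2 reads in any library. Over bins that are coding in whole or in part, Nxph1 had 9.99 RPKM in wild-type Ammon's horn, second after C1ql3. That choice drops bins from Nxph1, Cbln1 and Cbln2 only.

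The dentate gyrus had another order, in which the places of C1ql2 and C1ql3 rest on the exon model of C1ql3, described below. There C1ql2 (73.8 RPKM) and C1ql3 (70.5 RPKM) stood far above Nxph1 (3.67 RPKM), C1ql1 (2.98 RPKM), Cbln4 (1.83 RPKM), Cbln2 (1.53 RPKM), Nxph3 (0.95 RPKM), Cbln1 (0.50 RPKM) and Nxph4 (0.33 RPKM). Summed over the 9 genes, ligand RNA came to 156 RPKM in the dentate gyrus, 53.8 ± 2.05 RPKM in knockout and 53.0 ± 1.87 RPKM in wild-type Ammon's horn (SD, n = 3 each). The C1q-like genes made up 94.4% of that sum in the dentate gyrus, 55.0% ± 2.68 in knockout Ammon's horn and 56.3% ± 4.28 in wild-type Ammon's horn. The cerebellins summed to 3.86 RPKM (2.47%) in the dentate gyrus, 9.90 ± 0.41 RPKM in knockout and 10.1 ± 2.01 RPKM in wild-type Ammon's horn. Neurexophilins took 3.17% of the ligand sum in the dentate gyrus, 26.5% ± 1.46 in knockout and 24.7% ± 1.95 in wild-type Ammon's horn. These sums and shares use all bins, so they rest on the exon models of Nxph1 and C1ql3 as well.

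**Figure D1:**
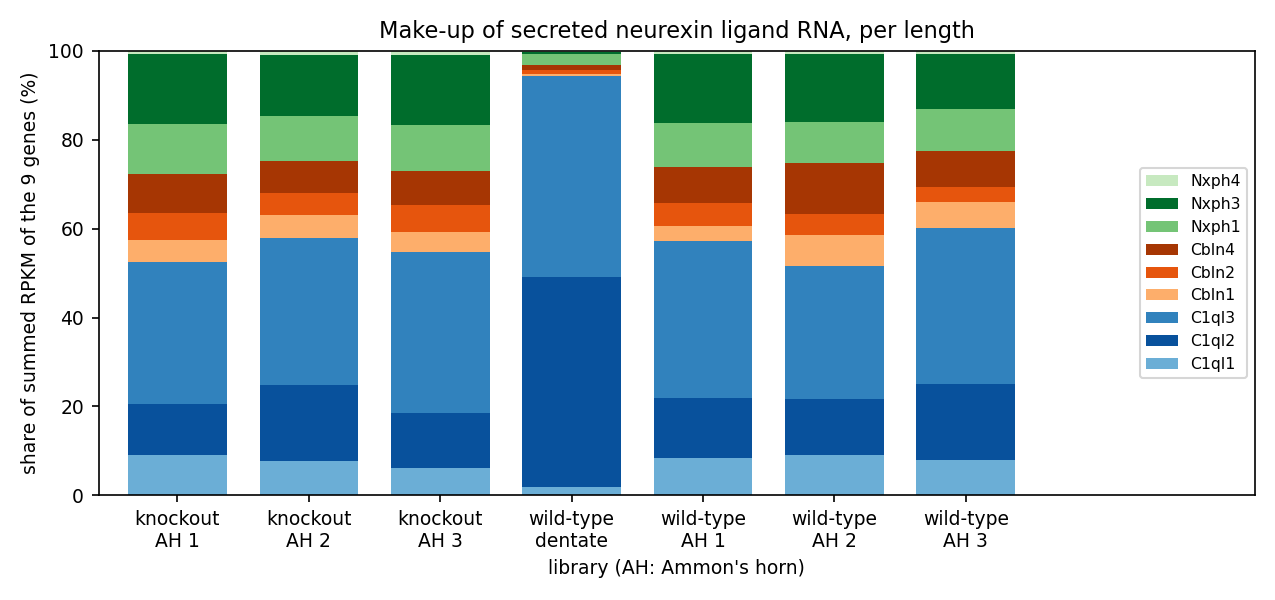
Share of each of the 9 genes in their summed RPKM, in percent, for each library (AH, Ammon's horn). C1ql2 and C1ql3 fill 47.3% and 45.2% of the dentate gyrus bar, while C1ql3 fills 33.8% of the knockout and 33.5% of the wild-type Ammon's horn bars on average.

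The dentate gyrus comparison sets the field of the granule cells against the CA fields. Of the 9 members, 8 passed the test (edgeR quasi-likelihood, adjusted p under 0.05), 2 of them higher and 6 lower in the dentate gyrus. Of all 24486 genes tested 22.0% passed, 11.2% higher and 10.9% lower. The median log2 fold change of the members was -0.64, against -0.01 over all genes tested. Changes of at least 2-fold were called in 5 members, 2 higher and 3 lower, while 2.22% of all genes were called higher and 1.76% lower by that much. All 9 lay outside the range of the 6 Ammon's horn libraries, 2 above and 7 below, as did 56.9% of genes, 28.5% above and 28.3% below. In whole tissue, fewer cells of a type and less RNA per cell cannot be told apart.

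C1ql2 and C1ql3, the mossy fiber ligands, rose in the dentate gyrus. C1ql2 (chr1:120340582-120343171, 2 exon bins) had 149 CPM in the dentate gyrus (95% Poisson interval 146 to 152, counting error only), against 16.2, 14.3 and 18.7 CPM in wild-type Ammon's horn. The dentate gyrus value was 7.45 times the highest of the 6 Ammon's horn libraries. That is 9.09-fold higher than in wild-type Ammon's horn (edgeR log2 fold change 3.18, SE 0.18, adjusted p = 2.97e-06). C1ql3 (chr2:13003457-13011747, minus strand) had 189 CPM in the dentate gyrus, against 55.5, 45.7 and 51.6 CPM in wild-type Ammon's horn, with no Ammon's horn library near the dentate level. It was 3.71-fold higher (edgeR log2 fold change 1.89, SE 0.09, adjusted p = 1.68e-06). Both calls held under all 10 alternatives.

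The pair differed in balance as well as in level. Per length there was 0.96 times as much C1ql3 as C1ql2 in the dentate gyrus, 2.76, 1.94 and 2.93 times in the knockout libraries and 2.61, 2.42 and 2.07 times in the wild-type ones of Ammon's horn. Every Ammon's horn library held more C1ql3 than C1ql2, and by this measure the dentate gyrus library held nearly equal amounts. That near-equality rests on the exon model. C1ql3 bin 2 (1488 bp, minus strand) runs to chr2:13011747, upstream of the RefSeq start at 13010864. A shorter bin would raise C1ql3 per length in every library alike.

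C1ql1, the family member known as the climbing fiber ligand of the cerebellum, did the opposite. C1ql1 (chr11:102939264-102946688, minus strand) had 4.76 CPM in the dentate gyrus, against 7.20, 8.00 and 7.11 CPM in wild-type Ammon's horn, all above it. It was 1.56-fold lower (edgeR log2 fold change -0.64, SE 0.19, adjusted p = 0.0327). The call was lost without wild-type library 2 (adjusted p = 0.0659) and against all 6 Ammon's horn libraries (adjusted p = 0.0790); knockout library 3 had 5.15 CPM. The C1ql1 record also lies inside Gm26668, a lincRNA record on the other strand with 24470 to 35812 counts per library; strand use in the counting is not given in the sources used here, so reads of C1ql1 and Gm26668 cannot be told apart. Markers of oligodendrocyte precursors, glia known to express C1ql1, summed to 116 CPM in the dentate gyrus, 167 to 179 CPM in knockout and 173 to 181 CPM in wild-type Ammon's horn, with 2 of 4 called lower in the dentate gyrus and none at 0. Their part in the C1ql1 difference was not tested.

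Granule cell markers moved with C1ql2 and C1ql3. The 8 markers summed to 680 CPM in the dentate gyrus, 102 to 125 CPM in knockout and 99.6 to 126 CPM in wild-type Ammon's horn. None was at 0 in Ammon's horn. Prox1, a transcription factor among these markers, had 210 CPM in the dentate gyrus and 11.2% of that on average in wild-type Ammon's horn. C1ql2 stood there at 11.01% and C1ql3 at 27.0% of their dentate levels. Over all 8 markers the average ran from 8.74% to 30.1%, so both ligands lay within their range. Among single Ammon's horn libraries, C1ql2 was highest in knockout library 2 (13.4% of the dentate level) and lowest in knockout library 1 (8.62%). Prox1 was 12.6% and 8.90% in those libraries, but was highest in wild-type library 3 (13.3%). C1ql3 had other extremes, wild-type library 1 (29.4%) and wild-type library 2 (24.2%). How much of the C1ql2 and C1ql3 RNA in the Ammon's horn libraries came from granule cells was not tested.

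**Figure D2:**
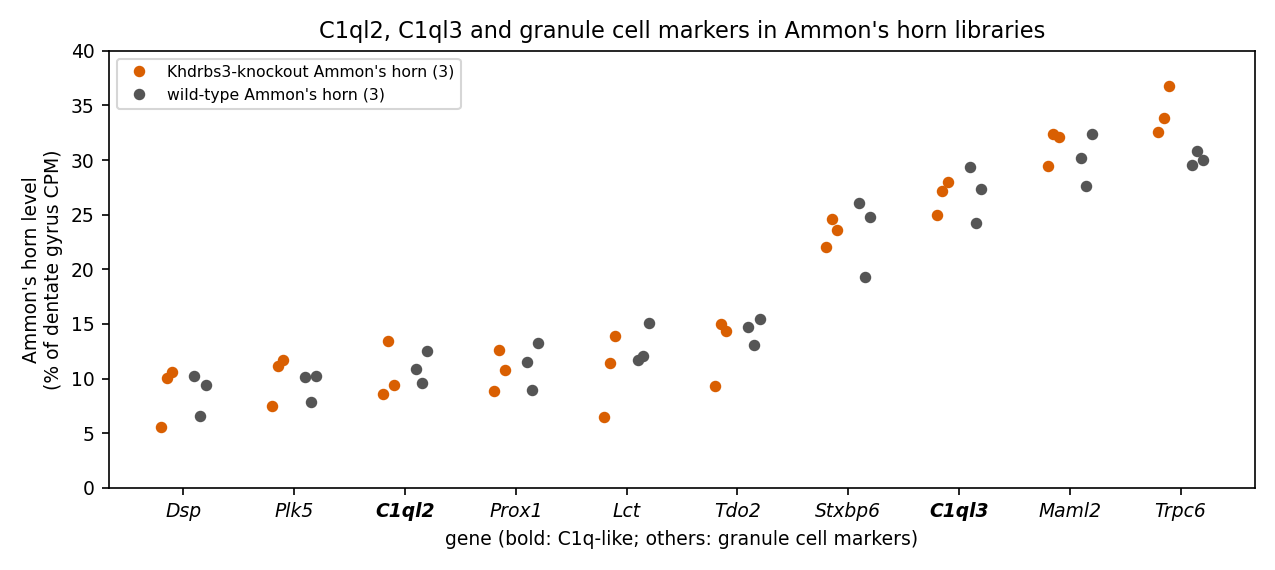
Level of C1ql2, C1ql3 (bold) and 8 granule cell markers in each Ammon's horn library, as a percentage of the CPM in the dentate gyrus library, with knockout left of wild type. C1ql2 lies beside Prox1, between 8.62% and 13.4%, and C1ql3 lies between 24.2% and 29.4%, beside Stxbp6 and Maml2.

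All 3 cerebellins fell in the dentate gyrus. Cbln1 (chr8:87468854-87472592, minus strand), the cerebellin released by cerebellar granule cells, had 0.997 CPM in the dentate gyrus (62 counts, 95% Poisson interval 0.76 to 1.28 CPM). Wild-type Ammon's horn had 4.05, 7.76 and 7.03 CPM, the lowest of which was 4.06 times the dentate value. It was 6.31-fold lower (edgeR log2 fold change -2.66, SE 0.36, adjusted p = 0.000587). Cbln4 (chr2:172036233-172043466, minus strand), which binds neurexins and also the netrin receptors DCC and neogenin, had 4.71 CPM in the dentate gyrus, against 11.9, 17.1 and 12.3 CPM in wild-type Ammon's horn. It was 2.93-fold lower (edgeR log2 fold change -1.55, SE 0.21, adjusted p = 0.000623), and no Ammon's horn library came within 2.37-fold of the dentate value.

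Cbln2 (chromosome 18), a cerebellin of forebrain neurons that binds GluD receptors, had 3.76 CPM in the dentate gyrus, against 7.43, 6.72 and 5.04 CPM in wild-type Ammon's horn. The dentate value lay below all of them, by the narrowest margin of the 3 cerebellins. Cbln2 was 1.70-fold lower (edgeR log2 fold change -0.76, SE 0.22, adjusted p = 0.0319). That call failed in 5 of 10 alternatives, with adjusted p up to 0.0599: without wild-type library 1, without wild-type library 2, with the 4 wild-type libraries alone, with limma-voom and with exon-bin sums.

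The neurexophilins parted by member. Nxph3 (chr11:95509845-95514570, minus strand), a neurexophilin known from restricted sets of cortical and cerebellar neurons, had 2.12 CPM in the dentate gyrus, against 18.8, 17.8 and 14.97 CPM in wild-type Ammon's horn, each at least 7.05 times as high. It was 8.08-fold lower (edgeR log2 fold change -3.01, SE 0.17, adjusted p = 2.97e-06), the strongest decrease among the 9 members. Nxph1 (chr6:8948431-9249032), the neurexophilin of inhibitory interneurons, had 20.9 CPM in the dentate gyrus, against 30.5, 27.9 and 27.8 CPM in wild-type Ammon's horn. The groups did not overlap, and Nxph1 was 1.37-fold lower (edgeR log2 fold change -0.46, SE 0.09, adjusted p = 0.00534). Nxph4 (chr10:127525473-127534559, minus strand) had 0.64 CPM from 40 counts in the dentate gyrus, against 0.90, 0.83 and 0.94 CPM in wild-type libraries. It did not pass (edgeR log2 fold change -0.46, SE 0.35, adjusted p = 0.394), and its 95% interval of 0.43-fold to 1.24-fold leaves the size of any difference unresolved. The calls of Nxph1, Nxph3, Cbln1 and Cbln4 held under all 10 alternatives.

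Markers of other cell types moved with the lower members. The 8 CA1 pyramidal markers summed to 118 CPM in the dentate gyrus, 762 to 811 CPM in knockout and 813 to 853 CPM in wild-type Ammon's horn, none of them at 0. Single CA1 markers stood at 5.86% to 33.7% of their wild-type Ammon's horn level in the dentate gyrus, where Nxph3 stood at 12.4% and Cbln1 at 15.9%. Cbln4, at 34.2%, lay just above that range and inside the range of the interneuron markers given next. The 12 interneuron markers summed to 1005 CPM in the dentate gyrus, 1286 to 1362 CPM in knockout and 1217 to 1286 CPM in wild-type Ammon's horn; 8 were called lower and 1 higher in the dentate gyrus. Single interneuron markers stood at 32.7% to 126% of their wild-type Ammon's horn level, with a median of 77.9%, beside 72.8% for Nxph1. Markers of neocortex and subiculum summed to 129 CPM in the dentate gyrus, 198 to 210 CPM in knockout and 198 to 210 CPM in wild-type Ammon's horn, with 5 of 8 called lower and 1 higher. Oligodendrocyte markers, with all 6 called lower and a median log2 fold change of -1.57, summed to 1330 CPM in the dentate gyrus, 3396 to 3632 CPM in knockout and 3969 to 4151 CPM in wild-type Ammon's horn. Fewer members of the remaining lists were called lower in the dentate gyrus, 3 of 6 microglial, 2 of 8 CA2 and CA3, 2 of 8 mossy cell (4 higher), 2 of 8 thalamic and habenular (1 higher), and 0 of 6 astrocyte and 0 of 8 choroid plexus markers. The part of these cells in the lower ligand levels was not tested.

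**Figure D3:**
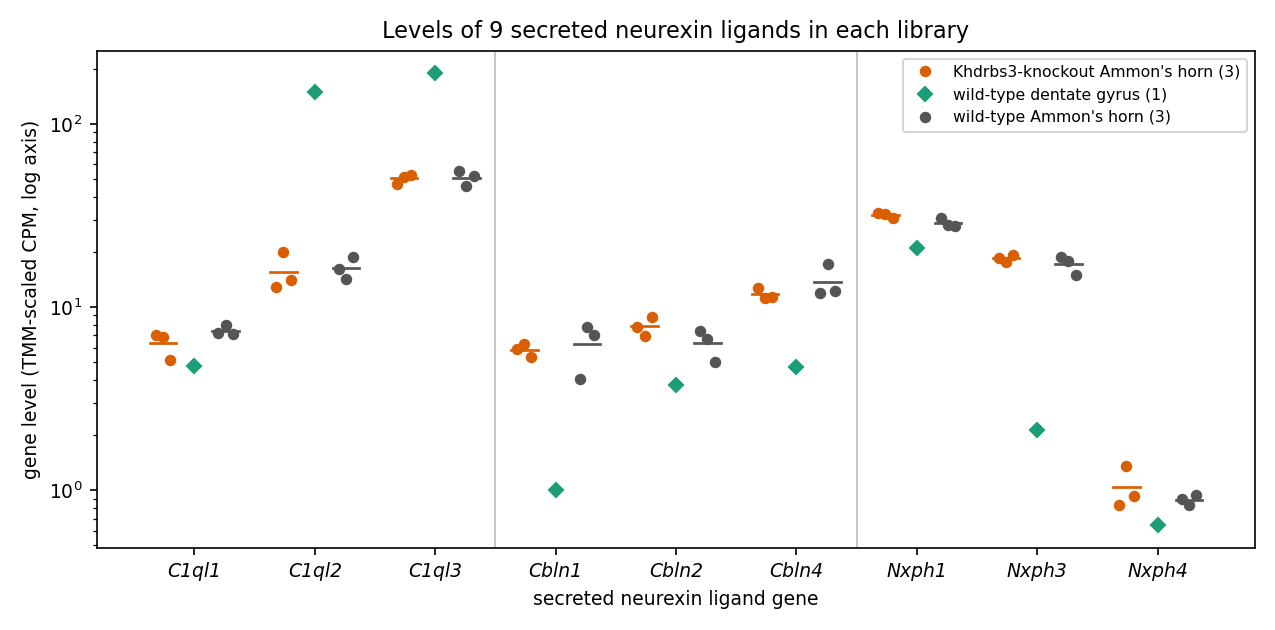
Gene level in TMM-scaled CPM (log axis) of the 9 members in each library: 3 knockout Ammon's horn libraries (circles, left), 1 dentate gyrus library (diamond, middle) and 3 wild-type Ammon's horn libraries (circles, right), with bars at the group means. The dentate gyrus diamonds stand above both Ammon's horn groups for C1ql2 and C1ql3 and below them for the other 7 genes, and the knockout and wild-type circles overlap for all but C1ql1.

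The knockout comparison asks whether loss of KHDRBS3 alters the ligands in Ammon's horn. It uses the same 3 wild-type libraries as the dentate gyrus comparison. None of the 9 members passed (edgeR, 0 at adjusted p under 0.05, 1 at an unadjusted p under 0.05, and 0 by DESeq2 and by limma-voom), where 0.0745% of 22830 genes passed and 8.38% had an unadjusted p under 0.05. The median log2 fold change was -0.02, against 0.00 over all genes, with 4 members positive and 5 negative. No member was called under any of the 13 alternatives. As a whole gene, Khdrbs3 was higher in the knockout, although its exon bin 2 held few reads there. It had 199 CPM in the knockout, against 140 CPM in wild-type Ammon's horn (edgeR log2 fold change 0.51, adjusted p = 0.00245). Of the 13 alternatives, 1 left out knockout libraries 1 and 3, which held the most choroid plexus RNA. That setting keeps 1 knockout library and bears little on the members. The log2 fold changes in it were 0.61 for Nxph4 and 0.29 for C1ql2, against 0.23 and -0.07 with all 3 knockout libraries. The part of choroid plexus RNA in the knockout values was not tested.

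The abundant ligands gave the tightest limits. C1ql3 had 47.1, 51.3 and 52.8 CPM in the knockout, against 55.5, 45.7 and 51.6 CPM in wild-type Ammon's horn, and all knockout values lay inside the wild-type range. Its 95% interval ran from 0.88-fold to 1.11-fold (edgeR adjusted p = 0.978). Nxph1 had 32.7, 32.1 and 30.5 CPM in the knockout, against 30.5, 27.9 and 27.8 CPM in wild-type libraries. The groups overlapped narrowly, in the lowest knockout library (30.45 CPM) and the highest wild-type one (30.48 CPM). Nxph1 was the member with an unadjusted p under 0.05 (edgeR adjusted p = 0.561), at 1.11-fold with a 95% interval of 1.01-fold to 1.22-fold. Interneuron markers summed to 1286 to 1362 CPM in knockout and 1217 to 1286 CPM in wild-type libraries. Of the 12, 0 were called in the knockout, with a median log2 fold change of 0.08. Their part in the Nxph1 values was not tested. Nxph3, at 18.5, 17.6 and 19.3 CPM in the knockout and 18.8, 17.8 and 14.97 CPM in wild-type libraries, overlapped, with an interval of 0.94-fold to 1.24-fold.

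C1ql2 had 12.8, 19.95 and 14.02 CPM in the knockout, against 16.2, 14.3 and 18.7 CPM in wild-type Ammon's horn. The knockout libraries spanned the wild-type range, and the interval was 0.75-fold to 1.21-fold (edgeR adjusted p = 0.938). C1ql1 had 7.04, 6.84 and 5.15 CPM in the knockout, each below the wild-type 7.20, 8.00 and 7.11 CPM. It was the single member whose groups did not overlap, as was so for 13.2% of all genes, 6.44% with the knockout lower, and it did not pass (edgeR log2 fold change -0.23, SE 0.13, adjusted p = 0.675).

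Among the cerebellins, the ligands that read the segment 4 insert, none passed. Cbln1 had 5.88, 6.25 and 5.33 CPM in the knockout, against 4.05, 7.76 and 7.03 CPM in wild-type Ammon's horn, so all knockout values lay inside the wild-type range (interval 0.68-fold to 1.25-fold). Cbln2 had 7.79, 6.95 and 8.78 CPM in the knockout, against 7.43, 6.72 and 5.04 CPM in wild-type libraries, overlapping in 1 knockout library (edgeR log2 fold change 0.29, SE 0.15, adjusted p = 0.626). Cbln4 had 12.8, 11.2 and 11.4 CPM in the knockout, against 11.9, 17.1 and 12.3 CPM in wild-type libraries, overlapping as well (edgeR log2 fold change -0.23, SE 0.13, adjusted p = 0.680). Nxph4, near 1 CPM in both groups, had the widest interval of the 9, 0.82-fold to 1.67-fold.

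**Figure D4:**
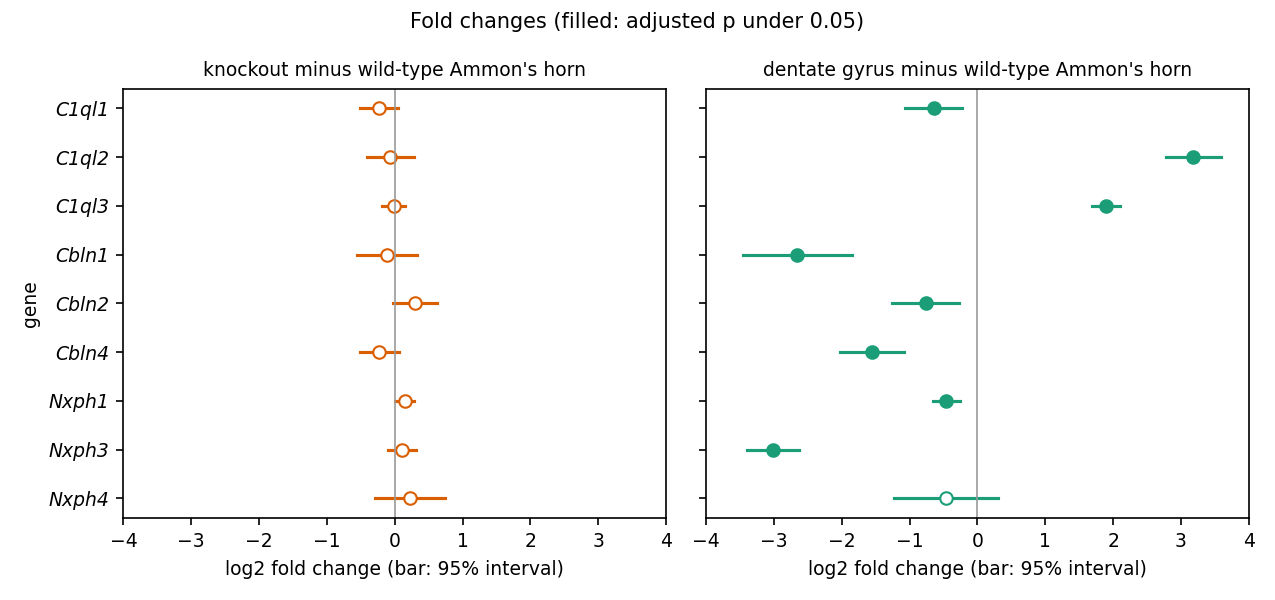
Log2 fold changes of the 9 members with 95% intervals, for knockout over wild-type Ammon's horn (left) and dentate gyrus over wild-type Ammon's horn (right); filled circles have an adjusted p under 0.05. All 9 circles on the left are open, from -0.23 for C1ql1 and Cbln4 to 0.29 for Cbln2, and 8 of 9 on the right are filled, from -3.01 for Nxph3 to 3.18 for C1ql2.

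On the receptor side, segment 4 exons were used more in the same knockout libraries. Nrxn2 bin 44 held 581, 542 and 463 reads in knockout libraries, against 131, 174 and 179 in the wild-type ones, with no overlap. Its share of the gene's exon-bin reads was 5.05% ± 0.16 in the knockout and 1.47% ± 0.05 in wild-type Ammon's horn (SD, n = 3 each; edgeR usage log2 fold change 1.78, SE 0.11, adjusted p = 1.09e-34). Nrxn3 bin 34, printed above, took 2.25% ± 0.14 in the knockout and 0.84% ± 0.08 in wild-type Ammon's horn (edgeR usage log2 fold change 1.42, SE 0.16, adjusted p = 1.54e-11). Exon bins were called in 0.00301% of 166154 tested, 5 in all, and both were among them.

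In the dentate gyrus, where the cerebellins were lower, Nrxn2 bin 44 took 3.66% (375 reads, exact 95% binomial interval 3.31 to 4.04%) of the gene's reads, above the 1.47% of wild-type Ammon's horn (edgeR usage log2 fold change 1.31, SE 0.14, adjusted p = 1.42e-12). The Nrxn3 bin (1.13%) did not pass there. Khdrbs3 had 78.8 CPM in the dentate gyrus, against 140 CPM in wild-type Ammon's horn (edgeR log2 fold change -0.83, SE 0.07, adjusted p = 4.27e-05). Neither its part nor that of the cerebellins in the exon usage was tested. As whole genes, neither Nrxn2 nor Nrxn3 passed for the knockout, and Nrxn3 passed for the dentate gyrus, at 141 CPM against 172 ± 12.7 CPM in wild-type Ammon's horn (edgeR log2 fold change -0.28, SE 0.09, adjusted p = 0.0451). That call failed in 4 of 10 alternatives, with adjusted p up to 0.104: without wild-type library 1, without wild-type library 3, with the 4 wild-type libraries alone and with RLE scaling.

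Of the 8 receptors and partners listed for these ligands, 0 passed for the knockout (edgeR; median log2 fold change 0.03), and 3 for the dentate gyrus, all higher (median 0.17). Grik2, the kainate receptor subunit GluK2 that C1ql2 and C1ql3 bind, had 99.5 CPM in the dentate gyrus, against 52.4 ± 4.38 CPM (SD, n = 3) in wild-type Ammon's horn. Its log2 fold change was 0.92 (SE 0.09, edgeR adjusted p = 7.27e-05), and it was called under all 10 alternatives. Dcc had 37.9 CPM in the dentate gyrus and 28.8 ± 3.87 CPM in wild-type Ammon's horn (edgeR adjusted p = 0.0447), and Neo1, encoding neogenin, 102 CPM in the dentate gyrus and 82.3 ± 7.70 CPM in wild-type Ammon's horn (edgeR adjusted p = 0.0486). Both lost their call without wild-type library 1, without wild-type library 2 and with the 4 wild-type libraries alone, with adjusted p up to 0.0841 for Dcc and 0.0919 for Neo1, which also lost it with RLE scaling. Grid1, which encodes a cerebellin receptor, had a log2 fold change of 0.01 in the dentate gyrus and did not pass.

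The remaining family members were rare. Cbln3 averaged 0.39 CPM in knockout libraries, 0.29 CPM in the dentate gyrus and 0.64 CPM in wild-type Ammon's horn, and Nxph2 1.89 CPM in knockout libraries, 1.87 CPM in the dentate gyrus and 1.93 CPM in wild-type Ammon's horn. Neither passed in either comparison; C1ql4 was too low to be tested. Of 3 tested genes for other secreted neurexin-binding proteins, 0 passed for the knockout, and 2 passed for the dentate gyrus. Fam19a2 had 77.2 CPM in the dentate gyrus, against 42.2 ± 2.57 CPM in wild-type Ammon's horn (edgeR log2 fold change 0.87, SE 0.08, adjusted p = 3.19e-05). Fam19a1 had 50.1 CPM in the dentate gyrus, against 59.3 ± 1.03 CPM in wild-type libraries (edgeR adjusted p = 0.0451), a call lost when any 1 of the 3 wild-type Ammon's horn libraries was left out (adjusted p up to 0.0881 over the 10 alternatives).

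Within the ligand transcripts, no exon bin passed the test of usage. Of the 37 member bins 24 could be tested in each comparison, from 8 genes, and 0 passed in either (edgeR; 0 at an unadjusted p under 0.05 in both, 0 with limma's diffSplice), where 0.213% of 169072 bins passed in the dentate gyrus comparison. Over all genes, 1.72% of bins in the knockout comparison, and 3.89% in that of the dentate gyrus, had an unadjusted p under 0.05. Nxph4 had no bin pair with enough reads. The largest usage difference in the dentate gyrus was 0.94 on the log2 scale (Cbln1 bin 4, SE 0.82, from 10 dentate reads), and it did not pass. C1ql3 bins 1 and 2 split the reads 60.6% to 39.4% in the dentate gyrus, 61.5% ± 1.10 to 38.5% ± 1.10 in the knockout and 60.2% ± 2.70 to 39.8% ± 2.70 in wild-type Ammon's horn. The dentate gyrus value and the knockout mean both differed from the wild-type mean by less than the wild-type SD.

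Nxph1 is the member with annotated alternative first exons that drew enough reads to describe. The upstream first exon (chr6:8948431-8949316, 5′ noncoding) took 85.9% of first-exon reads in the dentate gyrus (67 of 78), between 84.2% and 87.9% in the knockout libraries and between 83.0% and 94.96% in wild-type Ammon's horn, where the downstream one (chr6:8949676-8950143) held 6 to 20 reads. The dentate value lay inside the range of the wild-type libraries. These shares are of raw reads, not scaled by length, and the upstream exon is the longer one.

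Spread between libraries differed among members. The biological coefficient of variation, the spread beyond counting error, was taken from the knockout fit of 6 libraries. It was 6.54% for Nxph1, 7.44% for C1ql3 and 8.72% for Nxph3, and 17.3% for Cbln1 and 17.6% for Nxph4. The common value for all genes in that fit was 10.6%. For Cbln1 the wide spread lay in wild-type Ammon's horn, where library 1 had 4.05 CPM and library 2 7.76 CPM. Wild-type library 2 also held the highest Cbln4 value.

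Profiles most like those of the members were sought among 17642 genes of at least 1 CPM, by the root mean square difference of centred log2 CPM over the 7 libraries. The dentate gyrus library held the highest or the lowest value of every matched member. The nearest to C1ql2 were Prox1 (0.09) and Npnt (0.16), and to C1ql3 Fam163b (0.06). Nxph3 was nearest to Spink8 (0.10), one of the CA1 markers used here, which had 2.43 CPM in the dentate gyrus and 17.4 CPM in wild-type Ammon's horn, and to Gm13205 (0.12). Cbln4 was nearest to Mchr1 (0.09) and Rprml (0.10), and Cbln1 to Grem1 (0.22) and D430036J16Rik (0.25). The other 4 members varied too little over the libraries, with an SD under 0.5 on the log2 scale, to be matched.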

How the data were processed

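The authors deposited raw counts, whole numbers without normalization, as a table of gene records and as 1 file of exon-bin counts per library. Per the submitters' processing notes, the tools included DESeq2 1.0.19, bedtools 2.17.0, TopHat2 2.0.8b and Trim Galore 0.3.5, on mm10, with no roles given. Gene-table counts of the members were 1.55 to 2.29 times their exon-bin sums (median 1.60 over the 14488 genes with at least 700 counts in the 7 libraries together, a minimum Nxph4 did not reach), so levels per length used the bins. Libraries were grouped by their labels. edgeR 4.0.16 in R 4.3.3 tested the counts (TMM, edgeR's low-count filter, quasi-likelihood F test, Benjamini-Hochberg adjustment over all genes tested; SE is the fold change over the square root of F). The knockout fit used 6 libraries and the dentate gyrus fit all 7 in 3 groups. Exon usage used diffSpliceDGE on bins reaching 10 reads in 3 or more libraries. Bins were placed by rebuilding GENCODE M21 models. Alternatives used DESeq2 1.42.0, limma 3.58.1, other scaling and filters, exon-bin sums and left-out libraries. The main gene test and the main exon usage test were also run on simulated counts, and the other steps were not. The members, gene lists and tests were chosen with earlier results of these data known; every member is named, and listed genes are named where they passed. The likeness of profiles was measured on log2 CPM (prior count 2). A few genes and 1 exon sequence are not reported here.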

Additional observations from a re-analysis of the deposited data

How the results depend on the processing

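The 8 members called in the dentate gyrus kept their direction under all 10 alternatives. In the knockout, where none was called, the sign changed in 4 of 13 alternatives for C1ql2 and for C1ql3 and in 1 for Cbln1 and for Nxph4. In the dentate gyrus 6 to 8 members were called under each alternative, 6 of them without wild-type library 2, and in the knockout 0. Genes called in the knockout (17) numbered 117 with DESeq2, 10 with limma-voom, 8 with exon-bin sums, and from 11 to 55 with 1 library left out, 11 without knockout library 1 and without wild-type library 2, and 55 without knockout library 2. Exon bins called in the knockout (5) numbered up to 8 with 1 library left out, 8 without knockout library 3 and without wild-type library 2. In the dentate gyrus (360) they numbered 553 with limma-voom and from 196 to 512 with 1 wild-type library left out, 196 without library 1. The C1ql3 share of summed ligand RPKM in wild-type Ammon's horn, 33.5%, was 30.1% over bins coding in whole or in part. That alternative was chosen after seeing the data. Gene-table counts gave 35.3%, with 5 of 9 members at the same place in the order. Unscaled CPM and RLE scaling, also chosen after seeing the data, left all 9 members outside the Ammon's horn range. The dentate gyrus has 1 library, and Nxph4 and Cbln1 have few counts there. No paired analysis was possible because the labels carry no replicate numbers.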
